A study of Mus musculus with 32 samples.

Results

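The lysosomal gene set described here held 36 genes, out of 47643 gene IDs in the count table, and was taken by gene symbol from the enzymes, membrane proteins, proton pump subunits, regulators and sorting receptors of the lysosome. The rule is a list of symbols and has no threshold on a measured value, but the list was drawn up with earlier results of these data known. Each symbol matched 1 gene ID. Their transcripts were counted in the liver and in the epididymal fat depot (eWAT, a white adipose tissue) of male C57BL/6 mice that began the study at 10 weeks of age and were studied for 7 days. Mice drank water with corticosterone (cort), the main glucocorticoid of the mouse, or with the ethanol vehicle (veh), and ate a normal-protein diet (NPD) with 20% of its energy from protein or a high-protein diet (HPD) with 60%. The protein of both diets was whey, and the HPD made room for it by holding less carbohydrate, so the diets differed in both nutrients. There were 4 libraries in each of the 8 groups of tissue, treatment and diet (32 in all). The labels did not say whether a liver and an eWAT library came from the same mouse.

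Lysosomes are acidic organelles that break down proteins, glycans, sphingolipids, glycogen and cholesterol esters delivered by endocytosis, phagocytosis and autophagy. Most of the soluble hydrolases are tagged with mannose 6-phosphate and carried from the Golgi by the receptors encoded by M6pr and Igf2r, while a proton pump, the V-ATPase, acidifies the lumen in which they work. The transcription factors TFEB and TFE3 are held in the cytosol when amino acids are plentiful and mTORC1 is active, and on release to the nucleus they bind CACGTG-type E-boxes (the CLEAR element) near the start of many lysosomal genes. Macrophages, among them the Kupffer cells of the liver, are rich in lysosomes.

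Promoters are shown to let the letters of this element be seen in the genes that the results below turn on. A window from 250 bases before to 50 bases after the start was found in RefSeq (GRCm38.p6) for 29 of the 36 members, and not for Ctsb, Ctsh, Asah1, Npc1, Atp6v1b2, Atp6v1h and M6pr. On either strand, CACGTG stood in a window of 14 of these 29 genes (48.3%), compared with 2187 of 27025 genes of the whole table (8.09%). The longer TCACGTG, which contains it, stood in 12 of 29 (41.4%, against 4.29% of all genes), and the full palindrome TCACGTGA in 7 of 29 (24.1%, against 1.12%). The element is known from lysosomal genes, so its high share in a list of such genes is background and not a result of these data. Of the members called in a comparison below, 4 with TCACGTG and 2 without it are printed 5′ to 3′ on the strand of the gene, with the matches in capitals.
Ctsd, minus strand, chr7:142387778-142388077: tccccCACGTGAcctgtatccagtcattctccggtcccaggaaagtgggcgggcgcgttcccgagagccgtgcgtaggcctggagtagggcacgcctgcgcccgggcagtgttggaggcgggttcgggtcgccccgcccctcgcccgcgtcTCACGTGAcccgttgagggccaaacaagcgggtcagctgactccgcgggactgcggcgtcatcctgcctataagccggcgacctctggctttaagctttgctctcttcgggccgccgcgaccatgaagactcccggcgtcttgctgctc
Igf2r, minus strand, chr17:12769657-12769956: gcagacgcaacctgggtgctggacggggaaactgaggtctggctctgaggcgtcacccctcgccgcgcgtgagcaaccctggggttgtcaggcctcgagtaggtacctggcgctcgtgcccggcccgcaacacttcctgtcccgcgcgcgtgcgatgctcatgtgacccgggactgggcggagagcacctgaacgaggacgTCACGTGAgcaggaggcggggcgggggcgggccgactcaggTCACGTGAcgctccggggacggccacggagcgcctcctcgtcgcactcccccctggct
Lamp1, plus strand, chr8:13158911-13159210: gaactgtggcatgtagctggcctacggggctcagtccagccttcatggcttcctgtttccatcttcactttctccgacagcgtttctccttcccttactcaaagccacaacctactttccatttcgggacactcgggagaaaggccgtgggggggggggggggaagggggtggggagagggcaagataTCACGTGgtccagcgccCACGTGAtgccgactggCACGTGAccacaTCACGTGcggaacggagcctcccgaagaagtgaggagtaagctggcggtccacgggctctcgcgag
Glb1, plus strand, chr9:114400828-114401127: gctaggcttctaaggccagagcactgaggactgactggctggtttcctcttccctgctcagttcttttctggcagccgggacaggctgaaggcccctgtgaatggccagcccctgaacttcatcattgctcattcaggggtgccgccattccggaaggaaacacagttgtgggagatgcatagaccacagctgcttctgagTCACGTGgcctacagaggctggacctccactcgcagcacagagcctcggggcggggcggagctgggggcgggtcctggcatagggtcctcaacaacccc
Ctsl, minus strand, chr13:64370471-64370770: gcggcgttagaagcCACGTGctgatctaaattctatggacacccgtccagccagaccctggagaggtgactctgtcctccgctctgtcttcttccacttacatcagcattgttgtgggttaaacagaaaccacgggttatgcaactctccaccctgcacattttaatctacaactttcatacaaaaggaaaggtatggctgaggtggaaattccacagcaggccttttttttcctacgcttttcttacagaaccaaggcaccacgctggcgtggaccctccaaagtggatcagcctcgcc
Grn, plus strand, chr11:102430257-102430556: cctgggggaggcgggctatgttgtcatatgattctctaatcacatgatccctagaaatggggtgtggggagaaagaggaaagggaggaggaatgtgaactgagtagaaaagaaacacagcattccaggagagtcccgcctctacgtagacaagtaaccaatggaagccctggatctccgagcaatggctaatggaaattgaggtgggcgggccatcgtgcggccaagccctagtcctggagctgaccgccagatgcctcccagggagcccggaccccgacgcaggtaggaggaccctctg
In Igf2r both matches were the full palindrome, beginning with CACGTG 48 and 7 bases before the start. In Ctsd a full palindrome lay 98 bases before the start and a shorter match 245 before it. Lamp1 carried 4 matches, Glb1 a single one 48 bases before the start, and Ctsl only the 6-letter core, 236 bases before it. The Grn window held none of the 3 motifs. A match of letters is a description and not a bound site, and a window without one says only that these letters are not there.

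Several members called in a comparison below share sequence with a neighbour in the annotation. On the same strand Ctsd overlaps Gm49369, Ctsl Gm49230 and Glb1 Tmppe, and on the opposite strand Grn overlaps Fam171a2, Igf2r Airn, Ctsz Nelfcd, Lamp1 Grtp1, Hexa Tmem202, Sgsh Card14, Npc1 Rmc1 and Gm15956, Ctsl Gm47123 and Atp6v1h Rgs20. Whether the counting used strand was not given in the sources used here, so reads of these overlaps cannot be assigned with certainty.

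All 36 members were counted well enough to be tested in both tissues, among 15187 genes tested in eWAT and 12391 in liver, so no member was lost to the filter on low counts. Total counts per library were 9794683 to 18057936 in eWAT and 8933307 to 17447524 in liver. The assay reads the 3′ end of each transcript, so counts do not grow with transcript length and levels are given as CPM, the count scaled to library size. The lowest counts of any member were those of Sgsh in liver, 11 to 74 per library, and of Gla in liver, 15 to 52. A liver library, veh HPD replicate 4, stood apart from its group (mean correlation with the others of its group 0.900, compared with at least 0.939 for the rest of the series) and was left out of the liver comparisons by the rule that defined this gene set. Calls of members that are gained or lost when it is put back are stated in the comparison concerned. Of the eWAT libraries, cort HPD replicate 4 held 10301 CPM of epididymis and testis transcripts, compared with 1.13 to 11.6 in the other 3 of its group.

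Each tissue held its defining marker. The adipocyte hormone Adipoq stood at 3668 to 10113 CPM in eWAT and 0.240 to 3.56 in liver, and the hepatocyte protein Alb at 34473 to 205916 CPM in liver and 31.4 to 83.9 in eWAT. The Kupffer cell gene Clec4f was at 0 in all 16 eWAT libraries. Throughout, a gene was called when its adjusted p (edgeR quasi-likelihood test, Benjamini-Hochberg over all genes tested) was below 0.05, and a log2 fold change is given with its standard error (SE). The labels do not state that replicates are separate mice, so p-values measure the spread between these libraries. Where groups are said not to overlap, this describes the same libraries as the test and is no further support for a call. The share of all genes without overlap was not taken.

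**Figure D1:**
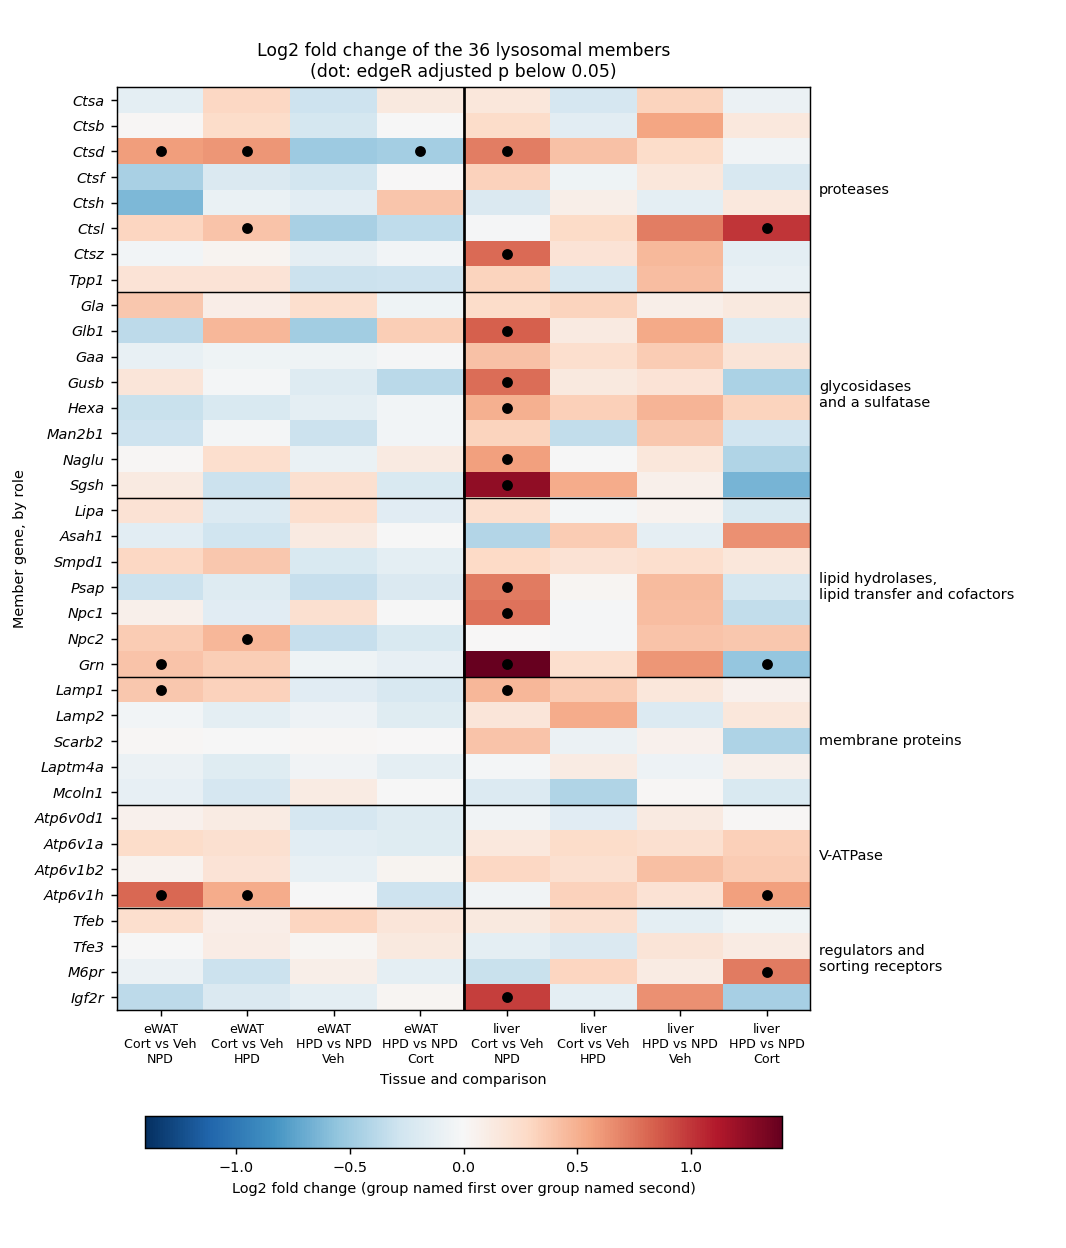
Log2 fold change (colour) of each of the 36 members (rows, grouped by role) in the 4 comparisons of each tissue (columns), with a dot where the edgeR adjusted p was below 0.05. Liver on cort and the NPD holds 12 dots, all in the direction of a higher level, and liver on cort and the HPD holds none. A dot on a single diet does not by itself show a difference between the diets.

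In liver of mice on the NPD, cort raised 12 of the 36 lysosomal transcripts and lowered none. The progranulin gene Grn rose most reliably, by 2.64-fold, followed by Igf2r at 1.95-fold, and glycan-degrading enzymes had the most calls, 5 of 8. Across all genes tested, 6.84% were called higher and 5.79% lower in this comparison, so the share of members called higher (12 of 36) was above that background and the share called lower was below it. The median log2 fold change of the members was 0.28, against -0.01 for all genes, and 27 of the 36 values were positive, against 49.6% of all genes.

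Among proteases, Ctsd and Ctsz rose. Cathepsin D (Ctsd, chr7:142375911-142388038, minus strand) is the main aspartic protease of lysosomes, and its level was 186, 189.9, 242 and 255 CPM in the veh NPD livers and 312, 391, 349.9 and 384 CPM in the cort NPD livers. Every cort library was above every veh library, and the log2 difference was 0.72 (SE 0.14, edgeR adjusted p = 0.00163). Ctsz, which encodes a carboxypeptidase of the cathepsin family (chr2:174427493-174439039, minus strand), stood at 67.0, 74.7, 81.6 and 63.5 CPM with veh and 131, 153, 106 and 108 CPM with cort, again without overlap (log2 difference 0.80, SE 0.16, edgeR adjusted p = 0.00139). The other 6 proteases had log2 differences from -0.20 (Ctsh, an aminopeptidase) to 0.32 (Ctsf) and did not pass. Ctsl, the cysteine endopeptidase that had the highest mean CPM of the set in liver, was 531 ± 93.0 CPM with veh and 524 ± 88.8 CPM with cort (mean ± SD, n = 4 each, log2 difference -0.02, 95% interval -0.34 to 0.29).

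Of the enzymes that strip sugars and sulfate from glycans, Glb1, Gusb, Naglu, Sgsh and Hexa rose. Glb1 (β-galactosidase, chr9:114401076-114474898, plus strand) was at 3.56, 3.40, 3.90 and 4.06 CPM with veh and 5.85, 6.56, 7.57 and 6.75 CPM with cort, and the groups did not overlap (log2 difference 0.84, SE 0.20, edgeR adjusted p = 0.00753). Gusb (β-glucuronidase, chr5:129989011-130003049, minus strand) was at 8.14, 7.43, 10.6 and 3.97 CPM with veh and 12.5, 12.1, 12.3 and 14.8 CPM with cort. Replicate 4 of the veh libraries was the lowest of these 8 for Gusb, and without it the log2 difference fell from 0.78 (SE 0.22, edgeR adjusted p = 0.0191) to 0.56 (edgeR adjusted p = 0.0555). Naglu and Sgsh both act on heparan sulfate, Naglu as a glucosaminidase and Sgsh as a sulfamidase. Naglu (chr11:101070012-101077672, plus strand) rose from 12.6, 8.28, 12.0 and 9.47 CPM to 15.9, 14.2, 18.1 and 15 CPM, without overlap (log2 difference 0.57, SE 0.16, edgeR adjusted p = 0.0202). Sgsh rose from a range of 1.17 to 2.25 CPM to 3.08 to 5.6 CPM, the second largest fold of the set on the lowest counts (2.36-fold, log2 SE 0.36, edgeR adjusted p = 0.0268). Hexa, the α subunit of β-hexosaminidase, passed only narrowly, and its groups overlapped (16.3 to 20.0 CPM with veh, 18.3 to 33.6 CPM with cort, edgeR adjusted p = 0.0464). Gla, Gaa and Man2b1, which act on α-linked galactose, glucose and mannose, had log2 differences of 0.25, 0.41 and 0.31 and did not pass.

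Among lipid hydrolases, lipid transfer proteins and their cofactors, Grn, Npc1 and Psap rose. Progranulin (Grn, chr11:102430315-102437048, plus strand) is a secreted protein that is also sorted to lysosomes and cut there into granulins, partly in company with prosaposin, the product of Psap. Its level was 84.8, 96.1, 101 and 99.0 CPM in the veh NPD livers and 198, 286, 245 and 277 CPM in the cort NPD livers, without overlap (log2 difference 1.4, SE 0.15, edgeR adjusted p = 1.54e-06). Npc1, the late endosomal membrane protein that passes cholesterol out of the organelle, went from 43.5, 33.1, 73.0 and 56.7 CPM to 77.2, 78.5, 103 and 91.1 CPM, with a wide spread among the veh libraries and a narrow gap between the groups (log2 difference 0.76, SE 0.22, edgeR adjusted p = 0.0245). Psap, the precursor of the saposins that help sphingolipid hydrolases, ranged over 73.3 to 99.2 CPM with veh and 118 to 198 CPM with cort (log2 difference 0.72, SE 0.22, edgeR adjusted p = 0.0363). Npc2, the soluble carrier that hands cholesterol to Npc1, did not pass (log2 difference 0.01, 95% interval -0.31 to 0.32). The acid lipase gene Lipa (0.23), the acid sphingomyelinase gene Smpd1 (0.28) and the acid ceramidase gene Asah1 (-0.41) also did not pass.

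Igf2r was the only called gene among the regulators and sorting receptors. It encodes the large mannose 6-phosphate receptor, which delivers hydrolases to lysosomes and takes up insulin-like growth factor 2 at the cell surface (chr17:12682406-12769664, minus strand). Its level was 13.1, 12.0, 15.7 and 14 CPM with veh and 20.8, 27.3, 29.2 and 29.6 CPM with cort, without overlap (log2 difference 0.96, SE 0.15, edgeR adjusted p = 0.000142). The small receptor of the same pathway, M6pr, was 60.2 ± 7.00 CPM with veh and 48.6 ± 9.12 CPM with cort and did not pass (log2 difference -0.31, SE 0.19, n = 4 each). The transcription factor genes Tfeb (3.51 ± 0.299 against 3.87 ± 0.599 CPM) and Tfe3 (9.55 ± 2.46 against 8.65 ± 0.878 CPM) did not pass either.

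Of the membrane proteins, Lamp1, an abundant glycoprotein of the lysosomal membrane, rose from a range of 409.9 to 495 CPM to 541 to 649.6 CPM (log2 difference 0.47, SE 0.14, edgeR adjusted p = 0.0253). Scarb2, the receptor that brings glucocerebrosidase to the lysosome, was 196 ± 20.3 CPM with veh and 259 ± 52.4 CPM with cort (edgeR adjusted p = 0.081), and Lamp2, Laptm4a and the calcium channel gene Mcoln1 had log2 differences between -0.19 and 0.17. The V-ATPase subunit genes of the set did not pass: log2 differences were -0.05 for Atp6v0d1, 0.15 for Atp6v1a, 0.29 for Atp6v1b2 and -0.05 for Atp6v1h.

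Grn, Igf2r, Ctsz, Ctsd and Glb1 kept their calls in all 23 alternative fits of this comparison, with the largest adjusted p at 0.0305 (Glb1). The number of members called was 8 with all 16 liver libraries, where Hexa, Sgsh, Psap and Lamp1 missed the threshold (edgeR adjusted p from 0.0613 to 0.0943), 5 without veh NPD replicate 2, and 7 without veh NPD replicate 1, veh NPD replicate 4, cort NPD replicate 3 or cort NPD replicate 4.

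**Figure D2:**
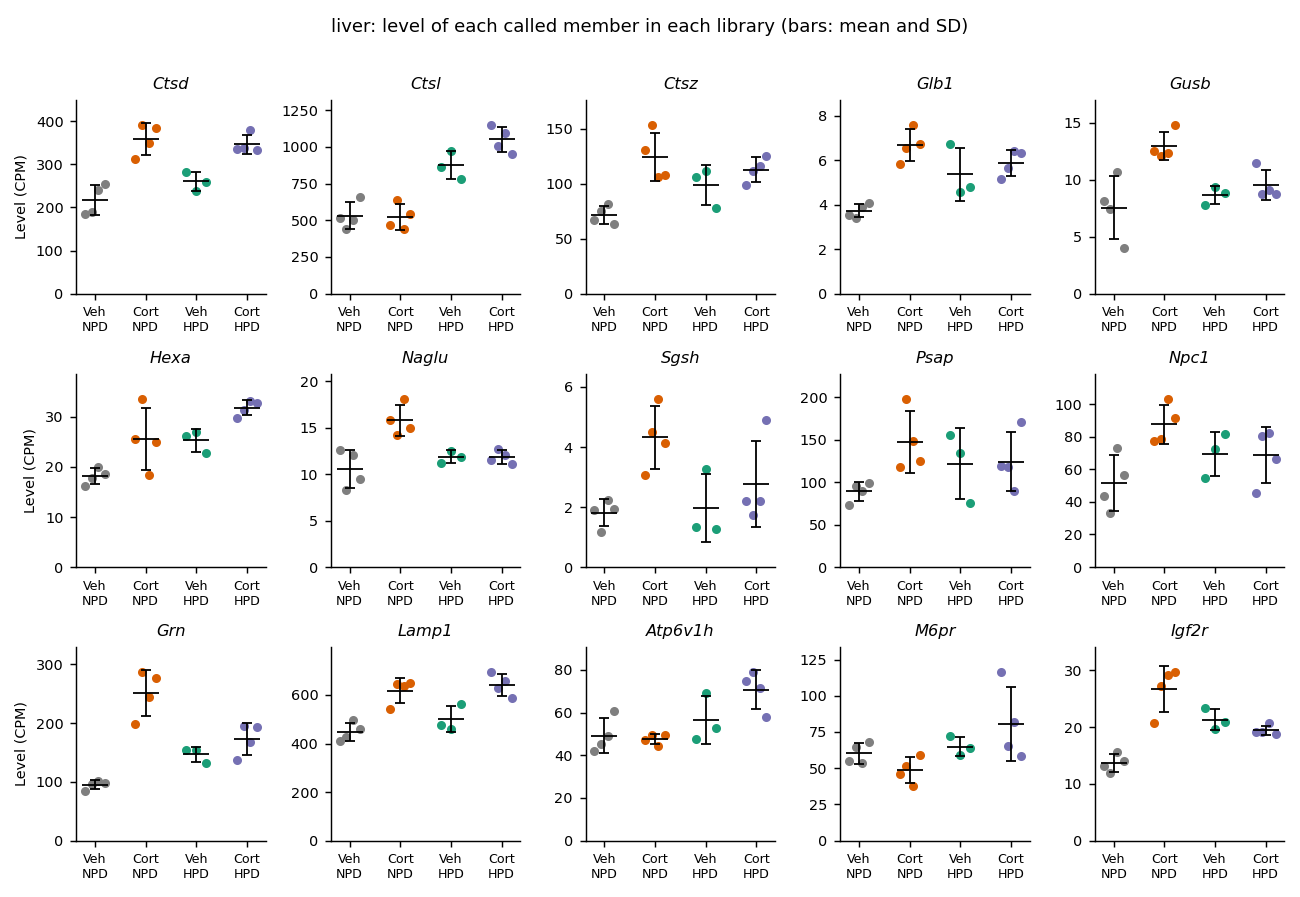
Level in CPM (vertical axes, from 0) of each member called in liver, in each library of the 4 groups, with the mean and SD as bars. For Grn the 4 cort NPD libraries, 198 to 286 CPM, lie above those of the other groups that entered the tests.

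The summed macrophage and Kupffer cell markers were lower with cort in the same libraries. The summed level of 14 macrophage markers was 317 to 439 CPM in the veh NPD livers and 155 to 279.5 CPM in the cort NPD livers, and that of 5 Kupffer cell markers 153 to 224 and 60.9 to 81.7 CPM. Of the 12 macrophage markers that could be tested 6 were called lower and 2 higher, and of the 5 Kupffer cell markers 4 were called lower, among them Clec4f (log2 difference -1.46, edgeR adjusted p = 3.16e-06). The 2 called higher, named after their values were seen, were Gpnmb (2.83, SE 0.76) and Trem2 (2.78, SE 0.86), known as genes of lipid-handling macrophages. Cd68, itself a lysosomal membrane protein of macrophages, was -0.77 (edgeR adjusted p = 0.0626). The summed level of the 36 members was 3810 to 4353 CPM with veh and 4508 to 5270 CPM with cort. In bulk tissue, fewer cells of a type and less RNA per cell cannot be told apart, and which cells held the members' transcripts was not tested.

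**Figure D3:**
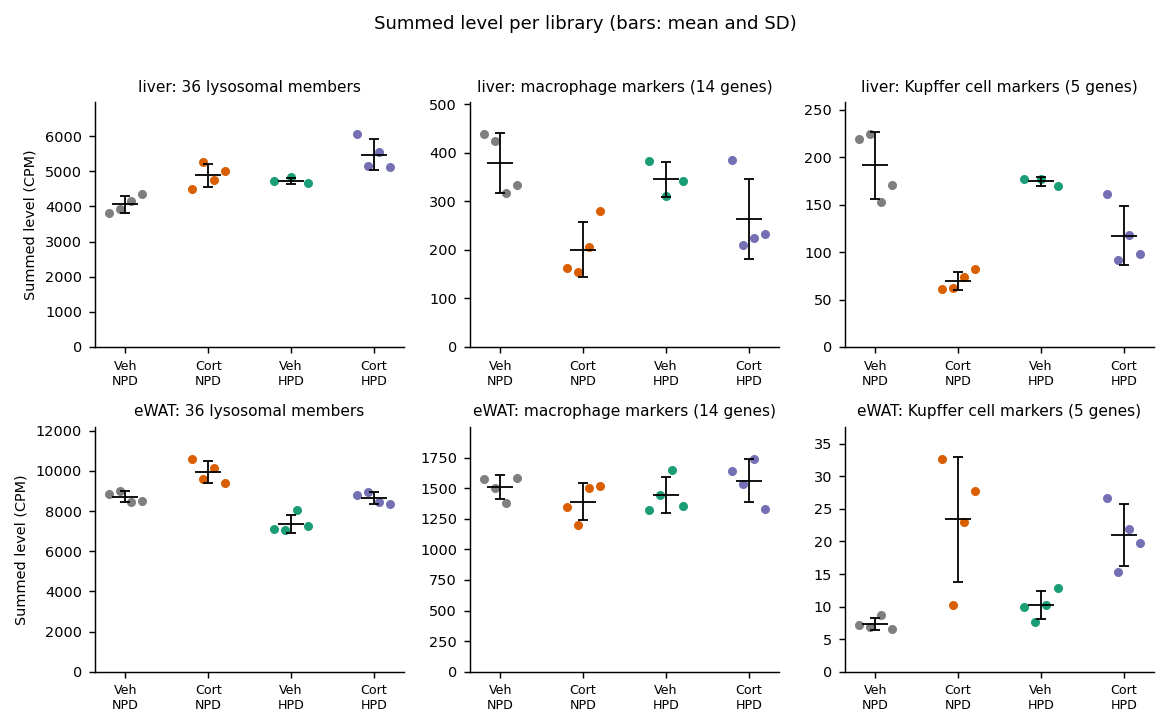
Summed CPM (vertical axes, from 0) of the 36 members, of 14 macrophage markers and of 5 Kupffer cell markers in each library of liver (top) and eWAT (bottom), with mean and SD as bars. In liver the cort NPD libraries lie above the veh NPD libraries for the members and below them for both marker sets.

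Genes of the lysosome outside the set were mixed in the cort NPD liver. Of 40 further lysosomal genes tested, 8 were called higher and 4 lower, with a median log2 difference of 0.19. Gm2a, the activator protein for ganglioside breakdown, rose by 0.99 on the log2 scale (SE 0.14, edgeR adjusted p = 6.30e-05), and the membrane tetraspanin gene Cd63 by 1.45 (SE 0.28, edgeR adjusted p = 0.00196). The 4 that fell, named here after their values were seen, were Ctss (-1.54), Sort1 (-2.39), Ctsc (-0.71) and Laptm5 (-0.78). Ctss and Laptm5 are known as genes of immune cells, and Sort1 encodes sortilin, which sorts progranulin and prosaposin to lysosomes. Of 10 further V-ATPase genes tested 2 were called higher, named after their values were seen as Atp6ap1 (0.45) and Atp6v0e (0.47). A further list of 17 genes held relatives of TFEB and TFE3 and genes that control them through the Rag GTPases and mTORC1. Of these, Fnip2, a partner of folliculin, was the single one called (1.48, SE 0.20, edgeR adjusted p = 2.31e-05). Of 23 autophagy genes 1 was called, Rubcn, named after its value was seen (0.95, SE 0.19, edgeR adjusted p = 0.00196).

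The E-box letters were found in members that rose and in members that were not called. Of the 11 genes that rose in the cort NPD liver and had a promoter window, 6 held CACGTG (54.5%), and of the 18 that were not called and had a window, 8 did (44.4%). For TCACGTG the shares were 54.5% and 33.3%, and for TCACGTGA 18.2% and 27.8%. Grn, with the largest rise, held none in its window.

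In liver of mice on the HPD, none of the 36 members passed the edgeR test between cort and veh, compared with 4.75% of all genes called higher and 5.14% called lower. At an unadjusted p below 0.05 there were 4 members, limma voom called 0, and DESeq2 called 3, Ctsd, Lamp1 and Lamp2, all higher. Ctsd was at 283, 239 and 260.3 CPM in the 3 veh HPD livers and 335, 337, 380.3 and 333 CPM in the 4 cort HPD livers, without overlap (log2 difference 0.41, SE 0.15, edgeR adjusted p = 0.0983). Lamp1 also did not overlap, with 478, 461 and 561 CPM against 693, 628, 659 and 588 CPM (log2 difference 0.36, edgeR adjusted p = 0.128). Lamp2, which serves in chaperone-mediated autophagy and in the fusion of autophagosomes with lysosomes, had the smallest p (0.52, SE 0.18, edgeR adjusted p = 0.0683) and was called when veh HPD replicate 4 was put back (0.66, edgeR adjusted p = 0.0387). The other 10 genes called on the NPD ran here from -0.14 for Igf2r (95% interval -0.45 to 0.18) to 0.52 for Sgsh (-0.27 to 1.30). In rising order between them were Npc1 (-0.02), Naglu (-0.00), Psap (0.03), Glb1 (0.12), Gusb (0.14), Ctsz (0.20), Grn (0.24, -0.08 to 0.56) and Hexa (0.33). The median over the 36 members was 0.13, against -0.00 for all genes. The sign of that median depended on the scaling: with plain library totals in place of TMM factors it was -0.11, with -0.24 for all genes. Alb took 102594 to 205916 CPM in the cort HPD livers and 34473 to 46091 CPM in the veh HPD livers, and its part in this shift was not tested. Macrophage markers summed to 311 to 384 CPM with veh and 209.8 to 386 CPM with cort, and Kupffer cell markers to 169.5 to 178 and 92.1 to 161 CPM. The macrophage sum of 386 CPM was that of cort HPD replicate 1, with 209.8 to 234 CPM in the others of its group. Of the 12 macrophage markers tested 3 were called lower and 0 higher. Of the 5 Kupffer cell markers 3 were called lower and 0 higher.

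The difference between the diets in the effect of cort was tested directly as an interaction, which 0.0565% of all genes passed as higher and 0.0565% as lower. Of the members, Grn and Igf2r passed, both with a lower value of the cort effect on the HPD. The other members called on the NPD did not pass, so their effect of cort was not shown to differ between the diets. For Grn the effect of cort was 1.4 on the NPD and 0.24 on the HPD, a difference of -1.16 (SE 0.22, edgeR adjusted p = 0.0441). In CPM, Grn was at 95.3 with veh and 251 with cort on the NPD, and at 147 and 173 on the HPD (group means). The veh HPD livers (155, 154 and 132 CPM) were above every veh NPD liver, a difference that did not pass (edgeR adjusted p = 0.133), and the cort HPD livers (137, 195, 168 and 193 CPM) were all below every cort NPD liver, which did (edgeR adjusted p = 0.0356). For Igf2r the effects were 0.96 and -0.14, a difference of -1.10 (SE 0.22, edgeR adjusted p = 0.0499), with 23.4, 19.7 and 20.8 CPM in the veh HPD livers and 19.1, 19.1, 20.7 and 18.8 CPM in the cort HPD livers. The Igf2r call lay at the threshold. The interaction call was lost in 11 of 15 fits that left out a single library for Grn and 13 of 15 for Igf2r. Both calls were also lost in limma voom, and with all 16 liver libraries (-1.41 and -1.09, edgeR adjusted p = 0.0861 and 0.0655). Over the set, 26 of 36 interaction values were negative, while 49.8% of all genes had a positive value. The median was -0.20 against -0.00 for all genes, and -0.41 against -0.22 with plain library totals. An unadjusted p below 0.05 was found for 12 members (12.1% of all genes had one), of which 10 were negative and 2, Asah1 and M6pr, positive. Of the 5 Kupffer cell markers, all had a positive interaction value and none passed the test (3 at an unadjusted p below 0.05); their part was not tested.

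**Figure D4:**
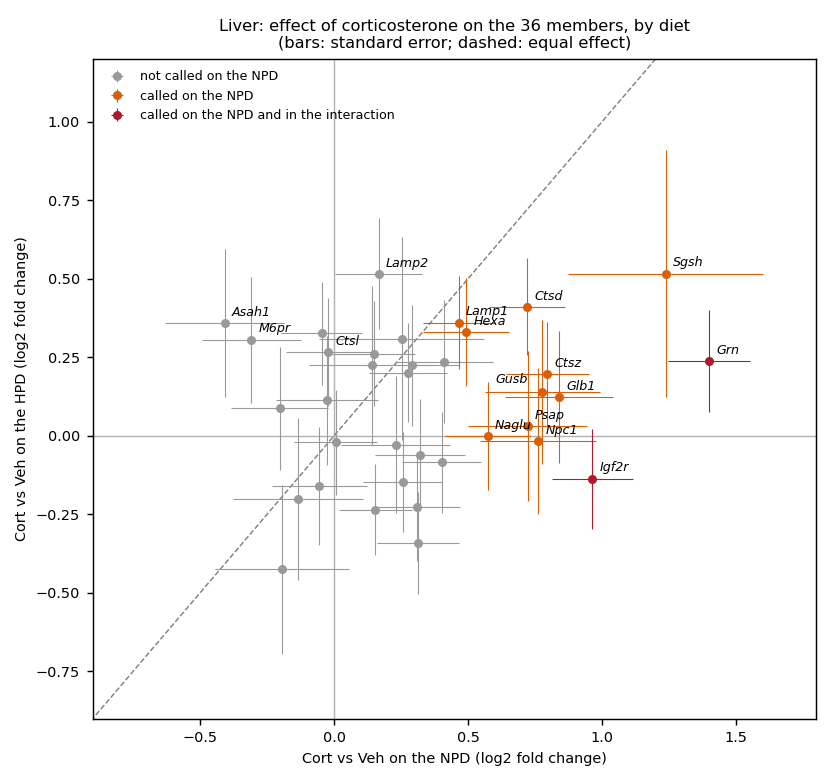
Log2 fold change of cort against veh in liver on the NPD (horizontal axis) and on the HPD (vertical axis) for the 36 members, with SE bars and a dashed line of equal effect. The 12 members called on the NPD all lie to the right of the line, Grn and Igf2r farthest from it. They were picked by their effect on the horizontal axis, which by itself moves points to that side.

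The HPD by itself, without cort, called none of the 36 members in liver (edgeR; DESeq2 called 3 and limma voom 0), in a comparison that called 0.105% of all genes higher and 0.0646% lower. Of the 36 values 31 were positive, against 50.4% of all genes, 12 had an unadjusted p below 0.05, against 9.4% of all genes, and the median was 0.21 against 0.00 for all genes. Ctsl was at 518, 442, 504 and 662 CPM on the NPD and 863, 975 and 784 CPM on the HPD, without overlap (log2 difference 0.72, SE 0.17, edgeR adjusted p = 0.0971). Igf2r (0.64, edgeR adjusted p = 0.124) and Grn (0.62, edgeR adjusted p = 0.133) followed, and these were the 3 that DESeq2 called. The veh NPD libraries of this comparison are the same as those of the cort comparison on the NPD, so the rise of a member in one is not independent of its value in the other.

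Between the diets in mice on cort, 3 members were higher on the HPD (Ctsl, M6pr and Atp6v1h) and 1 was lower (Grn), with 3.08% of all genes called higher and 2.8% lower. Ctsl had the largest change: the cort NPD livers held 469.5, 641, 442 and 543 CPM and the cort HPD livers 1147, 1007, 1097 and 955 CPM, without overlap (log2 difference 1.01, SE 0.16, edgeR adjusted p = 0.000653). This call held in all 23 alternative fits, with an adjusted p of at most 0.00601. M6pr was at 46.3, 51.8, 37.4 and 59.0 CPM on the NPD and 116, 65.5, 81.6 and 58.5 CPM on the HPD, and the groups overlapped (log2 difference 0.72, SE 0.19, edgeR adjusted p = 0.0236). Without cort HPD replicate 1, the highest of them, the difference was 0.49 (edgeR adjusted p = 0.0691). Atp6v1h, a regulatory subunit of the V-ATPase (chr1:5070018-5162529, plus strand), was at 47.3, 49.7, 44.4 and 49.4 CPM on the NPD and 74.7, 78.8, 71.5 and 58.1 CPM on the HPD, without overlap (log2 difference 0.57, SE 0.15, edgeR adjusted p = 0.0286). The other V-ATPase members had positive values that did not pass, 0.02 for Atp6v0d1, 0.34 for Atp6v1a and 0.36 for Atp6v1b2. Grn was lower on the HPD by the values given above (log2 difference -0.54, SE 0.15, edgeR adjusted p = 0.0356), and with all 16 libraries in the fit its call was lost (-0.53, edgeR adjusted p = 0.148), as was that of Atp6v1h (0.58, edgeR adjusted p = 0.0575). The cort NPD libraries are also those of the cort comparison on that diet, so the values of Grn in these comparisons are not independent. With plain library totals the median of all genes shifted by -0.17, the Ctsl difference was 0.83 (edgeR adjusted p = 0.00129), and 1 member was called higher and 3 lower in place of 3 and 1. The count of 4 was 1 without cort NPD replicate 3 and 2 without cort NPD replicate 2 or 4 or cort HPD replicate 1 or 3. Kupffer cell markers summed to 60.9 to 81.7 CPM in the cort NPD and 92.1 to 161 CPM in the cort HPD livers. Red blood cell markers summed to 1405 to 3580.5 and 5440.2 to 7782 CPM, and hepatocyte markers to 86699 to 107867 and 128814 to 229799 CPM. Alb alone held 70848 to 90753 and 102594 to 205916 CPM of the hepatocyte sums. The part of these markers in the differences was not tested.

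Other genes of lysosomes and autophagy moved between the diets under cort in small numbers. Arsa rose and Cd63 fell among 40 further lysosomal genes (log2 differences 0.95 and -1.04), and Gabarapl1 (0.69) and Sqstm1 (0.80) rose and Wipi1 (-0.67) fell among 23 autophagy genes. All but Cd63 and Wipi1 were named after their values were seen. Sqstm1 encodes the cargo receptor p62, and Gabarapl1 an ATG8 family protein of the autophagosome membrane. In the cort comparison on the HPD, 4 of 40 further lysosomal genes were higher and 3 lower, and Fnip2 rose there too (1.08, SE 0.21, edgeR adjusted p = 0.00175), as did the V-ATPase gene Atp6v0e (0.87, edgeR adjusted p = 0.00179). Fnip1, the paralog of Fnip2, fell (-0.49), and of 23 autophagy genes Atg5 rose (0.55) and Atg14 (-0.84) and Map1lc3b (-0.58) fell, all 4 named after their values were seen.

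In eWAT, cort raised a few members on each diet and lowered none. On the NPD 4 of 36 were called higher, against 4.05% of all genes higher and 3.93% lower, and on the HPD 4 of 36 as well, against 3.46% higher and 2.63% lower. The medians over the set were 0.02 and 0.07, with -0.02 and -0.00 for all genes. Ctsd and Atp6v1h were called on both diets, Grn and Lamp1 on the NPD, and Npc2 and Ctsl on the HPD. With the NPD the count dropped to 2 when veh NPD replicate 2 or cort NPD replicate 1 was removed. With the HPD it was 2 in the absence of veh HPD replicate 1, veh HPD replicate 2 or cort HPD replicate 1. With plain library totals the NPD median of the set was -0.07, with 2 members called higher and 1 lower.

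Ctsd was at 1154, 1127, 1211 and 1061 CPM in veh NPD fat and 1890.4, 1445, 1792 and 1695 CPM in cort NPD fat (log2 difference 0.58, SE 0.11, edgeR adjusted p = 0.000968). On the HPD it was at 723, 791, 828 and 851 CPM with veh and 1206, 1298, 1217 and 1190.4 CPM with cort (log2 difference 0.62, SE 0.11, edgeR adjusted p = 0.000658). The groups did not overlap on either diet, and the rise was close to 1.5-fold on each (1.5 and 1.54). The HPD also went with a lower Ctsd value under both treatments: the difference was -0.47 in cort fat (SE 0.11, edgeR adjusted p = 0.0454) and -0.51 in veh fat, where it missed the threshold (SE 0.11, edgeR adjusted p = 0.0621). The call in cort fat was lost in 11 of 16 fits that left out a library, at most with an adjusted p of 0.224, and was lost without cort HPD replicate 4 (-0.46, edgeR adjusted p = 0.160).

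Atp6v1h was at 58.6, 69.8, 72.8 and 69.9 CPM in veh NPD fat and 122, 116, 119 and 117 CPM in cort NPD fat, a 1.75-fold rise (log2 difference 0.81, SE 0.12, edgeR adjusted p = 4.75e-05). On the HPD the values were 65.3, 58.1, 65.1 and 82.3 CPM with veh and 93.3, 96.8, 104 and 94.7 CPM with cort (log2 difference 0.52, SE 0.12, edgeR adjusted p = 0.00655). The veh groups of both diets had nearly the same mean (67.8 and 67.7 CPM), and the cort groups stood above them without overlap. The other pump members were not called in fat (log2 differences on the NPD 0.06 for Atp6v0d1, 0.25 for Atp6v1a and 0.05 for Atp6v1b2). Of 10 V-ATPase genes outside the set, 4 were called higher on the NPD and 3 on the HPD. Atp6v0a1, of the proton-conducting part of the pump, rose most, by 0.99 on the NPD (SE 0.13, edgeR adjusted p = 6.13e-06) and 0.88 on the HPD (SE 0.13, edgeR adjusted p = 4.81e-05). All 10 had a positive value on the NPD and 9 of 10 on the HPD, compared with 47.5% and 49.7% of all genes.

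Grn in fat was at 218, 199.8, 211 and 221 CPM with veh and 303, 303, 265 and 252 CPM with cort on the NPD (log2 difference 0.40, SE 0.11, edgeR adjusted p = 0.0173), and on the HPD at 185, 219.6, 210.0 and 204 CPM and 246, 259.9, 262 and 272 CPM (log2 difference 0.34, edgeR adjusted p = 0.0539). The groups did not overlap on either diet, although only the NPD passed. Lamp1 followed the same course, from 714, 690.2, 658 and 672 CPM to 991, 792, 956 and 815 CPM on the NPD (log2 difference 0.38, SE 0.11, edgeR adjusted p = 0.0333), with a value of 0.32 on the HPD that did not pass (edgeR adjusted p = 0.0949). The Lamp1 call was lost in 8 of 16 fits that left out a library.

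Npc2, the member with the highest mean CPM in fat, was at 1078, 953, 1322 and 1201 CPM in veh HPD fat and 1599, 1558, 1561 and 1549.5 CPM in cort HPD fat (log2 difference 0.46, SE 0.12, edgeR adjusted p = 0.0187). The cort libraries lay close together and above the more widely spread veh libraries. Ctsl was at 369, 406, 435 and 344 CPM with veh and 548, 542, 476 and 481 CPM with cort on the HPD, without overlap (log2 difference 0.40, SE 0.11, edgeR adjusted p = 0.0329). On the NPD the same genes had log2 differences of 0.36 (Npc2, edgeR adjusted p = 0.0679) and 0.30 (Ctsl, edgeR adjusted p = 0.109).

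No member passed the interaction of cort and diet in eWAT by edgeR, DESeq2 or limma voom (2 had an unadjusted p below 0.05, and 0.00658% of all genes passed in each direction), so a gene called on 1 diet and not on the other was not shown to differ between the diets. The glycosidases, which had the most calls in liver, had log2 differences in fat from -0.37 (Glb1) to 0.38 (Gla) on the NPD, and none passed. The lowest values of the set were those of the proteases Ctsh (-0.63, SE 0.26, edgeR adjusted p = 0.188) and Ctsf (-0.45, SE 0.15, edgeR adjusted p = 0.0617).

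The HPD alone called no member in veh fat by edgeR (9 at an unadjusted p below 0.05, DESeq2 2, limma voom 1), with 0.0132% of all genes higher and 0.0461% lower, and 8.03% at an unadjusted p below 0.05. Of the 36 values 26 were negative, with a median of -0.13 against -0.00 for all genes, of which 49.6% had a positive value. Ctsd and Ctsl, the genes DESeq2 called, had log2 differences of -0.51 and -0.45, and all 8 proteases had a negative value. In cort fat, where 0.204% of all genes were higher and 0.283% lower, Ctsd was the single member called. Again 26 of 36 values were negative (median -0.05, against 0.02 for all genes, and 0.01 with plain library totals), while 52.7% of all genes had a positive value. For Ctsl the difference between the diets in cort mice was -0.36 in fat (edgeR adjusted p = 0.217) and 1.01 in liver. Whether the diet's effect differed between the tissues was not tested.

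**Figure D5:**
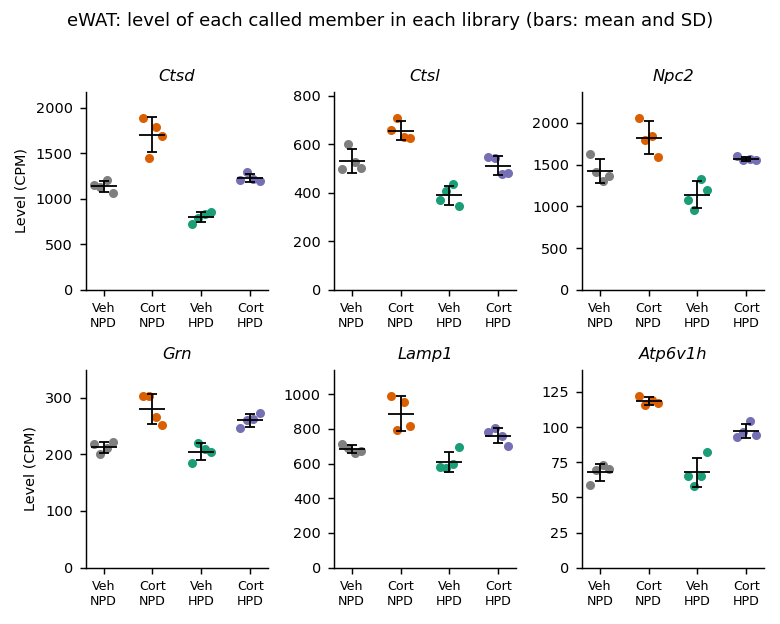
Level in CPM (vertical axes, from 0) of the 6 members called in eWAT, in each library of the 4 groups, with the mean and SD as bars. For Ctsd and Atp6v1h the cort libraries lie above the veh libraries on both diets, and the Ctsd libraries on the HPD lie below those of the same treatment on the NPD.

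In fat the summed macrophage markers overlapped between all groups. Macrophage markers summed to 1378 to 1586 CPM in veh NPD, 1196 to 1521 CPM in cort NPD, 1323 to 1648 CPM in veh HPD and 1331 to 1739 CPM in cort HPD fat. Of the 14 macrophage markers 5 were called lower and 0 higher with cort on the NPD, and 3 lower and 1 higher on the HPD. Adgre1 fell on both diets (-0.64 and -0.61), and the 1 called higher was Cd68 on the HPD (0.82, SE 0.18, edgeR adjusted p = 0.00615). Of the 6 adipocyte markers Adipoq was called lower on both diets (-0.58 and -0.81), Lep higher on both and Cidec higher on the NPD. Lep and Cidec were named after their values were seen. Adipocyte markers summed to 40996 to 46812.5 CPM in veh NPD and 38724 to 45357 CPM in cort NPD fat. On the HPD the sums were 37822 to 41824.5 CPM with veh and 33805 to 41467 CPM with cort. The genes of the Kupffer cell list, of which Clec4f had no counts in fat, summed to 6.60 to 8.65 CPM in veh NPD and 10.2 to 32.7 CPM in cort NPD fat, with Vsig4 called higher. On the HPD they summed to 7.64 to 12.9 CPM with veh and 15.3 to 26.7 CPM with cort, with Cd5l called higher. Vsig4 and Cd5l were named after their values were seen. Red blood cell transcripts summed to 12654 to 25767 CPM in cort HPD fat and 3604 to 9293 CPM in the other groups. Their part in the members' values was not tested. Without cort HPD replicate 4, the library with epididymis transcripts, 5 members were called on each diet in place of 4, and 1 of the 5 was lower with cort on each diet.

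Other lysosomal genes in cort fat were called in both directions, 3 of 41 higher and 6 lower on the NPD, and 1 higher and 3 lower on the HPD. The 6 that fell on the NPD were Laptm5 (-0.88), Acp5 (-0.80), Gm2a (-0.43), Ctss (-0.54), Ctsk (-1.24) and Fuca1 (-0.40), of which all but Laptm5 and Acp5 were named after their values were seen. Gm2a and Fuca1, an activator protein and a fucosidase, were called higher with cort in the NPD liver (0.99 and 0.51). On the HPD Ctsk (-1.65) and Acp5 (-0.75) had the smallest p of the 3 that fell. Wipi1, which binds the forming autophagosome, rose on the NPD (0.97, SE 0.14, edgeR adjusted p = 3.36e-05) and on the HPD (0.79, SE 0.14, edgeR adjusted p = 0.000504). It was among 4 of 24 autophagy genes called higher on the NPD and the single one on the HPD.

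The effect of cort, averaged over the diets, was compared between liver and eWAT in a joint fit of 31 libraries and 16482 genes, of which 3.88% were called higher in liver and 3.88% lower. Of the members 5 had a higher effect in liver and 1 a lower effect. Hexa differed by 0.68 (SE 0.15, edgeR adjusted p = 0.00379), with effects of 0.49 and 0.33 in liver and -0.31 and -0.22 in fat (NPD and HPD). Igf2r differed by 0.70 (SE 0.18, edgeR adjusted p = 0.00861), with effects of 0.96 and -0.14 in liver and -0.37 and -0.20 in fat. Ctsz (0.50, edgeR adjusted p = 0.0277), Grn (0.45, edgeR adjusted p = 0.025) and Psap (0.62, edgeR adjusted p = 0.0402) were the other 3 with a higher effect in liver. For Grn the effect was higher in liver on the NPD only. On the HPD its values, given above, were lower in liver than in fat, and the tissues were not tested on each diet alone. Atp6v1h went the other way (-0.52, SE 0.14, edgeR adjusted p = 0.0131): its effects were -0.05 and 0.33 in liver and 0.81 and 0.52 in fat. The calls of Hexa, Igf2r and Atp6v1h held in all 38 alternative fits, and that of Grn was lost with all 16 liver libraries (0.33, edgeR adjusted p = 0.219), as was that of Psap (0.49, edgeR adjusted p = 0.177). In that fit Ctsf (0.54, edgeR adjusted p = 0.0425) and Lamp2 (0.50, edgeR adjusted p = 0.0443) were called, which they were not in the main fit. Of 31 fits that left out a library, the call was lost in 16 for Psap, 7 for Ctsz and 1 for Grn. With plain library totals the calls of Psap, Ctsz and Grn were lost. Ctsd, called in both tissues, did not pass this test (-0.04, 95% interval -0.30 to 0.23), and neither did Lamp1 (0.07, 95% interval -0.19 to 0.32). All 8 genes of the glycosidase and sulfatase group had a positive difference, from 0.05 (Gla) to 0.97 (Sgsh), of which Hexa was the single one called. The macrophage markers differed in the opposite direction, with 6 of 14 called lower in liver and 1 higher.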

How the data were processed

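Counts of 3′ end reads per gene (QuantSeq 3′ FWD) were deposited by the authors as a single table of raw counts for the 32 libraries, with Ensembl gene IDs and no normalization. The aligner, the counter and the use of strand in counting were not given in the sources used here; the submitters' processing notes list GRCm38 and mm10, R 4.0.3 and limma. All columns were mapped to samples by their names (0 not mapped). IDs were given symbols from the reference table, and 47224 of 47643 had one.

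Genes with low counts were removed (filterByExpr, minimum count 10 and total 15), libraries were scaled by TMM, and edgeR 4.0.16 (R 4.3.3) quasi-likelihood tests were fitted with 1 fit per tissue of 4 groups, all genes included, and Benjamini-Hochberg adjustment over all genes tested. A joint fit of both tissues gave the difference between tissues. Levels are TMM-scaled CPM. Liver veh HPD replicate 4 was left out of the main fits. Scripts were tested on simulated data. Alternatives were RLE factors, library totals without factors (chosen after seeing the data), no filter, DESeq2 1.42.0, limma voom (3.58.1), a block for the replicate number, the compared groups only, a fit with every liver library, and leaving out each library. Intervals are from the fit. Precision is limited by the 4 libraries per group (3 for liver veh HPD in the main fits) and, for the lowest members, by their counts.

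All 36 members could be named, and values in every library are given for called members, up to the 8 with the smallest p in a comparison. Other genes were named from 4 lists (further lysosomal genes, further V-ATPase genes, relatives and regulators of TFEB and TFE3, autophagy genes) and from cell markers, up to 3 in each direction by p, unless said otherwise. The members and lists were chosen with earlier results of these data known.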

Additional observations from a re-analysis of the deposited data

Results flagged for a closer look

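In 5 of 69 member groups and 2 of 21 marker groups of 4 libraries, the highest or lowest library stood apart from the other 3 by Dixon's test at the 95% level, and chance gives about 1 group in 20. In the cort HPD livers these were Gusb in replicate 1 (11.4 CPM, others 8.76 to 9.10), Sgsh in replicate 4 (4.90 CPM, others 1.74 to 2.22), Ctsd in replicate 3 (380.3 CPM, others 333 to 337), Igf2r in replicate 3 (20.7 CPM, others 18.8 to 19.1) and the summed macrophage markers in replicate 1 (386 CPM, others 209.8 to 234). In the cort NPD livers Lamp1 was low in replicate 1 (541 CPM, others 637 to 649.6). The epididymis and testis markers of eWAT cort HPD replicate 4 summed to 10301 CPM (others 1.13 to 11.6). Causes were not tested.

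The effect of cort differed between the diets in liver for Grn (-1.16) and Igf2r (-1.10), each a log2 difference of HPD minus NPD from the edgeR interaction term. The effect of cort, averaged over the diets, differed between liver and eWAT (liver minus eWAT, log2) for Hexa (0.68), Igf2r (0.70), Psap (0.62), Ctsz (0.50), Grn (0.45) and Atp6v1h (-0.52). Both interaction calls, and the tissue calls of Psap, Ctsz and Grn, were lost in some of the alternative fits, as given above.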

How the results depend on the processing

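Of 33 calls of members, 13 were kept under every alternative run, and over all alternatives 676 of 847 member values stayed on their side of the threshold, 171 lost it and 0 changed sign. Counts of members called moved with DESeq2 to 7 (eWAT, cort on the NPD, main 4), 2 (eWAT, diet with veh, main 0), 2 (eWAT, diet with cort, main 1), 3 (liver, cort on the HPD, main 0) and 3 (liver, diet with veh, main 0). With library totals they were 1 (eWAT, diet with veh), 0 (eWAT, diet with cort), 1 (liver, diet with veh) and 3 (difference between tissues, main 6). Without the filter they were 1 for the diet with veh in eWAT and 1 in liver, and with limma voom 1 (eWAT, diet with veh) and 0 (liver interaction, main 2). RLE factors gave 1 for the liver interaction. All 16 liver libraries gave 1 (cort on the HPD), 2 (diet with cort, main 4) and 0 (interaction), and the compared groups alone gave 2 for cort on the HPD in eWAT (main 4) and 2 for the diet with cort in liver. Deviations from the group mean correlated at over 0.1 in 1 of 24 same-numbered pairs of libraries in eWAT and 6 of 21 in liver. Among pairs with different numbers it was 5 of 72 and 11 of 63. Each library enters several pairs, so these counts cannot decide whether the numbers pair libraries. The replicate block gave 3, 4, 0, 0 and 0 calls in eWAT and 11, 0, 0, 4 and 1 in liver (cort on the NPD, cort on the HPD, diet with veh, diet with cort, interaction) and 6 between tissues. Leaving out single libraries gave, in the same order, 2 to 5, 2 to 6, 0 to 1, 0 to 1 and 0 to 0 in eWAT, 5 to 12, 0 to 1, 0 to 1, 1 to 5 and 0 to 2 in liver, and 4 to 7 between tissues. The share of all called genes that were higher moved with library totals from 50.7% to 36.1% (eWAT, cort on the NPD), 22.2% to 37.5% (eWAT, diet with veh), 41.9% to 53.4% (eWAT, diet with cort), 48% to 17.8% (liver, cort on the HPD), 61.9% to 78.6% (liver, diet with veh), 52.4% to 23.2% (liver, diet with cort), 50% to 21.7% (liver interaction, 66.7% with RLE factors) and 50% to 38.9% (between tissues). Beyond the numbers of libraries and genes a setting uses, the cause of these moves was not tested. Counts of 11 to 74 per library limit what can be said of Sgsh in liver.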
